A study of Mus musculus with 4 samples.

Results

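The eIF2 alpha kinases and their regulators were examined in lineage-negative mouse bone marrow cells after deletion of Atad3a, which encodes an ATPase of the mitochondrial inner membrane. The members were 8 genes: the kinases Eif2ak1, Eif2ak2, Eif2ak3 and Eif2ak4, their substrate Eif2s1, the phosphatase subunit Ppp1r15b, and the regulators Impact and Gcn1l1, which RefSeq now names Gcn1. Every probe that the array's own gene name or the platform table gave to one of them was taken, which yielded 15 of 45281 probes on each bead array. The Atad3afl/flMx1Cre group, 2 samples, carried floxed Atad3a alleles and Mx1Cre. Mx1Cre is a Cre recombinase under the interferon-inducible Mx1 promoter, which poly I:C, a synthetic double-stranded RNA, switches on in blood cells and in other interferon-responsive tissues. The Atad3afl/fl group, 2 samples, carried the same floxed alleles without Mx1Cre. All 4 samples were collected 12 days after poly I:C and share that exposure. Since Cre was present in the deletion group alone, its effects and those of losing Atad3a cannot be told apart. The labels give no age and do not say whether replicates were separate animals, so each p-value covers just the scatter among these 4 samples, part or all of which may be technical.

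Each of the 4 kinases responds to a different stress and puts a phosphate on the alpha subunit of eIF2, the factor that brings the initiator tRNA to the ribosome. Phosphorylated eIF2 blocks its exchange factor eIF2B, which slows protein synthesis while favouring translation of a few mRNAs such as that of the transcription factor ATF4. Phosphatases built on the subunits Ppp1r15a and Ppp1r15b remove the phosphate again. The kinases are controlled mainly as proteins, by heme, double-stranded RNA, unfolded proteins or uncharged tRNA, and an mRNA array measures neither their activity nor eIF2 phosphorylation.

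Detected probes made up 39.5% and 39.9% of all probes on the Atad3afl/flMx1Cre arrays, and 38.7% and 37.5% on the Atad3afl/fl arrays. Precision is limited by having 2 arrays per group, for which relabelling cannot give a permutation p below 0.333. The single probe for Atad3a read 10.0009 and 9.834 (log2 intensity) in Atad3afl/flMx1Cre samples and 10.92 and 11.05 in Atad3afl/fl samples, a log2 change of -1.07 (SE 0.13, adjusted p = 0.00866). Without Atad3afl/flMx1Cre replicate 2 it no longer passed (log2 change -0.98, adjusted p = 0.0646). Whether the probe lies inside the deleted exons is not known here, so it may check nothing. The stem and progenitor genes Kit, Ly6a and Cd34 each had a probe detected on all 4 arrays. A dimmer Kit probe was undetected on Atad3afl/fl replicate 2. Of the 11 tested genes of the stem and progenitor list, 2 were undetected on both Atad3afl/fl arrays. The T cell genes Cd3e, Cd3g and Cd8b1 were also detected on all 4, and they belong to mature cells that a lineage depletion is designed to remove. In a bulk sample, fewer cells of a type and less RNA per cell cannot be told apart, and this holds for every result here.

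Of the 15 member probes, 8 were detected on at least 2 arrays and were tested, and they cover 5 of the 8 genes. By limma with adjustment over all 18367 tested probes, 1 of the 8 was higher in Atad3afl/flMx1Cre samples (Eif2ak2) and 3 were lower (Eif2ak1, Eif2ak3 and Ppp1r15b). Among all tested probes 27.0% passed, 14.0% as higher and 13.0% as lower, so that calls are common in this comparison. All 8 tested member probes had groups that did not overlap, which was also true of 70.0% of all tested probes. The dimmer Eif2ak1 probe, 1 of the 8, entered the test only through the controls. By gene, each read by its brightest tested probe, 4 of the 5 tested members passed, against 28.9% of all tested genes. The changes were moderate: none of the 4 calls reached 2-fold, and the median size of change over the 8 probes was 0.64 on the log2 scale, against 0.34 over all tested probes. No member call held when either Atad3afl/flMx1Cre array was left out. Such a fit leaves 1 sample in that group, and far fewer of all tested probes passed in it too. With replicate 1 of that group left out the log2 changes were -0.81 for Eif2ak1, 0.69 for Eif2ak2, -0.88 for Eif2ak3 and -0.56 for Ppp1r15b. With replicate 2 left out they were -0.86, 1.22, -1.01 and -0.85 in the same order.

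**Figure D1:**
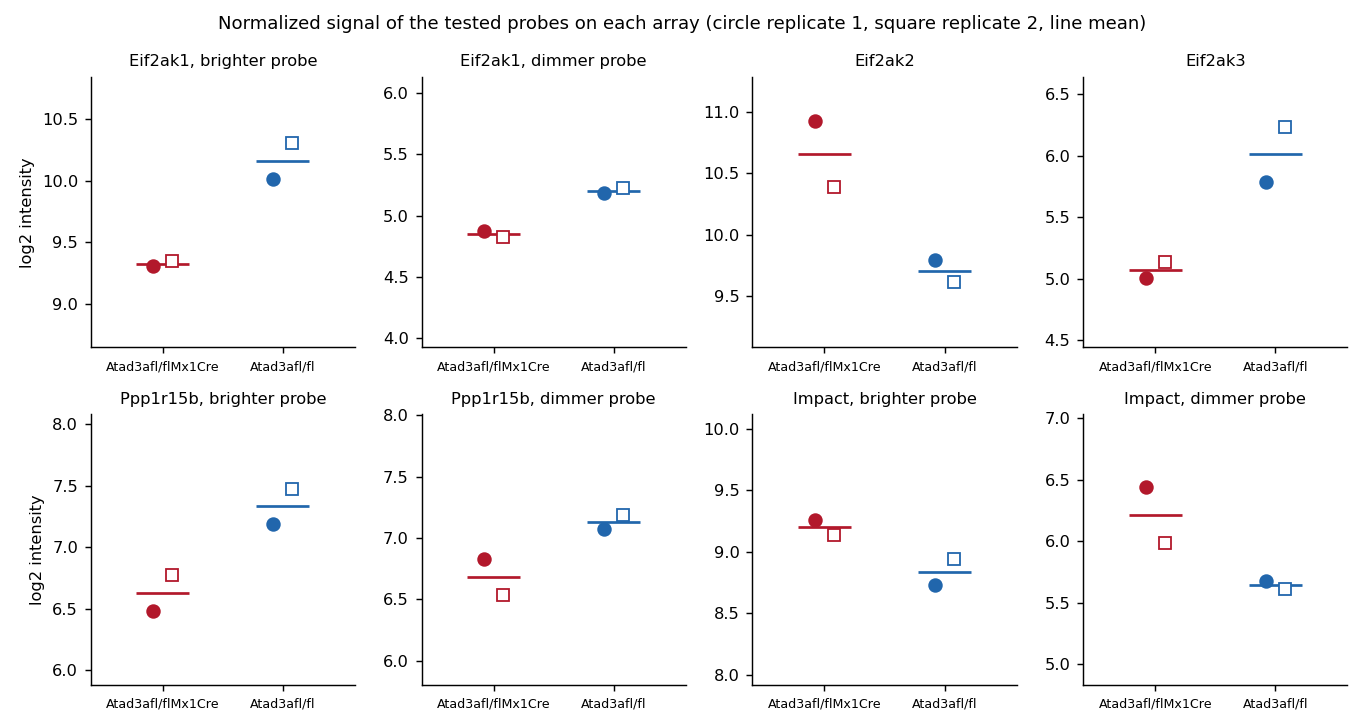
Normalized log2 intensity (vertical axis, each panel spanning the same range) of the 8 tested member probes on each array, with Atad3afl/flMx1Cre on the left and Atad3afl/fl on the right; circles are replicate 1, squares replicate 2 and lines group means. In each panel the 2 groups do not overlap, and Eif2ak2 and both Impact probes are the ones with the Atad3afl/flMx1Cre group on top.

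Eif2ak1 encodes HRI, the heme-regulated kinase that is most abundant in red cell precursors, where it ties globin synthesis to heme supply; in other cells it also answers mitochondrial stress relayed by DELE1. Its main probe, ILMN_2709397, read 9.30 and 9.35 in Atad3afl/flMx1Cre samples and 10.01 and 10.31 in Atad3afl/fl samples (log2 intensity). Both deletion samples were close together and at least 0.66 below the lower control. The transcript was thus 1.78-fold lower (log2 change -0.84, SE 0.15, 95% interval -1.22 to -0.45, adjusted p = 0.0203). A second probe, ILMN_1250901, is given to Eif2ak1 by the platform table alone, while the array's own name for it is A930024K11Rik, a cDNA clone. It was detected on neither Atad3afl/flMx1Cre array (4.87 and 4.83) and on both Atad3afl/fl arrays (5.18 and 5.22), near the floor of detection. Having entered the test only through the controls, it had a log2 change of -0.35 that did not pass (SE 0.11, 95% interval -0.64 to -0.06, adjusted p = 0.0802). Its bound, the control mean over the floor, was 1.19-fold lower and takes no account of scatter.

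Red cell precursor genes moved with Eif2ak1 in these samples. Of 17 tested genes of the erythroid list 16 fell and 0 rose, against 17 lower and 0 higher at an unadjusted p under 0.05, with a median log2 change of -3.85, against 14.1% lower and a median of 0.00 over all 10583 tested genes. The mean log2 intensity of the list was 6.94 and 5.93 on the Atad3afl/flMx1Cre arrays and 10.41 and 10.35 on the Atad3afl/fl arrays. Slc4a1, the band 3 anion exchanger, read 8.73 and 4.38 in Atad3afl/flMx1Cre samples and 13.64 and 13.84 in Atad3afl/fl samples, and Ermap, an erythroid membrane protein, read 5.04 and 4.43 against 10.86 and 11.20. Alas2, the erythroid enzyme that starts heme synthesis, read 6.12 and 4.39 in Atad3afl/flMx1Cre samples, against 10.74 and 10.73 in Atad3afl/fl samples. Gata1, the erythroid transcription factor, read 6.21 and 6.07 in the deletion samples and 8.17 and 8.38 in the controls. The fall of Eif2ak1, 0.84, was smaller than that of each of these, of which Slc4a1 and Ermap were named for having the largest changes on the list. Alas2, Slc4a1 and Ermap were detected on 1 of the 2 deletion arrays, and Slc4a1 did not pass without either Atad3afl/fl array (adjusted p = 0.0759 and 0.0944). In all, 3 of the 17 were detected on neither deletion array and entered the test only through the controls. Cldn13 and Rhd were among them and were at least 4.65-fold and 2.03-fold lower by their bounds. The second Atad3afl/flMx1Cre array was the lower one for 15 of the 17 erythroid genes but not for Eif2ak1, whose values on the 2 arrays differed by less than 0.1. The part of red cell precursors in the fall of Eif2ak1 was not tested.

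Eif2ak2 encodes PKR, which binds double-stranded RNA and is itself an interferon-induced gene of antiviral defence. It was the only kinase with a higher transcript that passed the test. Its single probe, ILMN_1250410, read 10.93 and 10.39 in Atad3afl/flMx1Cre samples and 9.79 and 9.62 in Atad3afl/fl samples. Both deletion samples lay above both controls, by at least 0.60, but they differed from each other by nearly as much. The level was 1.94-fold higher (log2 change 0.95, SE 0.21, 95% interval 0.39 to 1.51, adjusted p = 0.0356). The call ended when any 1 of the 4 arrays was left out; without Atad3afl/fl replicate 1 the adjusted p was 0.0702 and without Atad3afl/fl replicate 2 it was 0.114. It also ended with median scaling (log2 change 0.77, adjusted p = 0.0558), which moves the median of all genes to -0.10, and when probes were kept whether or not detected (adjusted p = 0.0664).

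Other interferon-induced genes rose in the same samples. Of 22 tested genes of that list, which does not hold Eif2ak2, 14 rose and 1 fell, against 14.7% higher over all tested genes. The median log2 change was 0.93, and 1 of the 22 was undetected on both Atad3afl/fl arrays. Ifit3, an antiviral effector, read 8.93 and 8.15 in Atad3afl/flMx1Cre samples and 6.46 and 6.83 in Atad3afl/fl samples (log2 change 1.89, SE 0.30, adjusted p = 0.0159). Bst2, the membrane protein tetherin, rose by a log2 change of 1.87 (SE 0.28), and Oasl2, a relative of the RNA-activated oligoadenylate synthetases, by 1.84 (SE 0.21). Isg15, a ubiquitin-like modifier, rose by 1.67 (SE 0.24) and Mx1 by 1.28 (SE 0.27). Mx1 did not pass without either Atad3afl/flMx1Cre array (adjusted p = 0.133 and 0.107) or when undetected probes were kept (0.0600). Isg15 and Bst2 did not pass without Atad3afl/fl replicate 2 (0.0548 and 0.0579), nor Ifit3 without Atad3afl/fl replicate 1 (0.0520). The gene that fell was Isg20, an exonuclease, with 6.908 and 6.9975 in Atad3afl/flMx1Cre samples and 9.37 and 9.10 in Atad3afl/fl samples (log2 change -2.28, SE 0.14, adjusted p = 0.00224). Ifit1 was not tested, its probe being detected on fewer than 2 arrays. On the second Atad3afl/flMx1Cre array 12 of 13 T and NK genes, 15 of 17 erythroid genes and 2 of 11 B lymphoid genes were lower than on the first. So were 19 of the 22 interferon-induced genes, as Eif2ak2 was. The part of interferon in the rise of Eif2ak2 was not tested. Without 1 array the number of list genes that rose lay between 6 and 9, with 6 and 7 when an Atad3afl/flMx1Cre array was left out and 9 when either Atad3afl/fl array was.

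The promoters shown are those of Eif2ak2 and Eif2ak1, kinases that changed in opposite directions in the same samples. Only Eif2ak2 is known as an interferon-induced gene. Whether any promoter element had a part in either change was not tested. Each runs from 250 bases before to 50 bases after the transcription start (RefSeq, build GRCm38.p6), that of Eif2ak2 at chr17:78882523-78882822 on the minus strand and that of Eif2ak1 at chr5:143817542-143817841 on the plus strand. Capitals mark the match to the interferon-stimulated response element, searched on both strands as GAAA, any 2 bases, GAAA.
Eif2ak2: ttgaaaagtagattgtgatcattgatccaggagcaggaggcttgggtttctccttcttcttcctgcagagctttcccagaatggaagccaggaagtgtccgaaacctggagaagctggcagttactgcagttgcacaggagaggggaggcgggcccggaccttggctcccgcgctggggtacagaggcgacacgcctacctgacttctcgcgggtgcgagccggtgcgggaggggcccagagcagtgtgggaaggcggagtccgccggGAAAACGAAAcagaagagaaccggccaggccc
Eif2ak1: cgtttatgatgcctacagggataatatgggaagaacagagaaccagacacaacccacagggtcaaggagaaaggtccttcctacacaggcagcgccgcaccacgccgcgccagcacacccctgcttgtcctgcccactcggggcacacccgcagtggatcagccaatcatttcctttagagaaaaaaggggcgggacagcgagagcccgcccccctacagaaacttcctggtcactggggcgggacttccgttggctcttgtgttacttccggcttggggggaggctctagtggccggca

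The Eif2ak2 window held 1 match, 18 to 27 bases after the first transcribed base, and the Eif2ak1 window held none. A match occurred in 3.44% of all 32851 RefSeq promoters of that length. By gene, 10 of 19 interferon-induced list genes with a promoter in the table had one (52.6%), against 3.99% of all its genes. That list was made of genes known as interferon-induced, so its share describes the motif and is no result of these arrays. Promoter sequence was matched for 6 of the 8 members, in 7 windows; Ppp1r15b and Impact were the others. Among those windows the response element also occurred in that of Eif2s1, 212 to 203 bases before the start. Further motifs searched on both strands were AGATAA and TGATAA for GATA factors, CCACACCC for the CACCC box, TGATGNAA for the ATF4 and C/EBP composite element, and CCAAT, any 9 bases, CCACG for the endoplasmic reticulum stress element. Of these only CCACACCC was found, in 1 of the windows of Eif2ak4, while 3.56% of all promoters hold it. The shares of all promoters were 11.2% for AGATAA, 9.05% for TGATAA, 3.97% for TGATGNAA and 0.119% for the stress element. No match says only that these letters are not in the window.

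Eif2ak3 encodes PERK, the kinase in the membrane of the endoplasmic reticulum that senses unfolded proteins in its lumen. Its probe ILMN_1221022 was dim, with 5.004 and 5.134 in Atad3afl/flMx1Cre samples and 5.79 and 6.23 in Atad3afl/fl samples. It was detected on all 4 arrays, though in the deletion samples only just, with detection p-values of 0.0417 and 0.0192. Eif2ak3 was 1.92-fold lower (log2 change -0.94, SE 0.19, 95% interval -1.43 to -0.45, adjusted p = 0.0267). The size of this fall depended on how background was handled: the log2 change was -0.35 without background correction (adjusted p = 0.0450), -0.47 with normexp without control probes (adjusted p = 0.0340) and -0.29 in the authors' processed values, where it did not pass (adjusted p = 0.0596). A second Eif2ak3 probe, ILMN_1224408, was detected on no array.

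The proteins that bind PERK or work beside it in the endoplasmic reticulum mostly did not pass. Of 6 tested genes 1 rose and 0 fell (also 0 at an unadjusted p under 0.05), against 14.7% higher and 14.1% lower over all tested genes. The median log2 change of the list was 0.29. The one that rose was Dnajc3, a chaperone known as an inhibitor of both PERK and PKR, with 8.90 and 8.95 in Atad3afl/flMx1Cre samples against 7.90 and 7.62 in Atad3afl/fl samples (log2 change 1.16, SE 0.14, adjusted p = 0.00907). Its call ended without either Atad3afl/flMx1Cre array (adjusted p = 0.0596 and 0.0656). Hspa5, the lumenal chaperone BiP that holds PERK inactive, was dim and its groups overlapped, with 4.88 and 5.63 in Atad3afl/flMx1Cre samples and 5.14 and 5.40 in Atad3afl/fl samples (log2 change -0.01, adjusted p = 0.978). The only Hspa5 probe read near the floor of detection and was undetected on Atad3afl/flMx1Cre replicate 1. These readings therefore cannot tell whether the Hspa5 transcript changed.

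In the other arms of the unfolded protein response 5 of 13 tested genes rose and 1 fell, against 14.7% higher and 14.1% lower over all tested genes. The median log2 change of the list was 0.56. Sel1l, an adaptor of degradation from the endoplasmic reticulum, rose by a log2 change of 1.41 by its brightest probe (SE 0.21), and the transcription factor Xbp1 by 1.25 (SE 0.16). Other Sel1l probes were at 0.77, 0.39 and 0.41 without passing (adjusted p = 0.0714, 0.0728 and 0.0920). Edem1, which sends misfolded glycoproteins to degradation, rose by 1.02 (SE 0.23, adjusted p = 0.0352), but by 0.34 without passing in the authors' processed values. Syvn1, the ubiquitin ligase that works with Sel1l, was the one that fell (log2 change -1.13, SE 0.12, adjusted p = 0.00654). Without Atad3afl/flMx1Cre replicate 2 the adjusted p was 0.0519 for Sel1l, 0.0532 for Xbp1 and 0.104 for Edem1, and without replicate 1 it was 0.0530 for Syvn1. Without Atad3afl/fl replicate 2 it was 0.0586 for Sel1l and 0.112 for Edem1, and without replicate 1 it was 0.0785 for Edem1. The rises numbered 3 and 0 without Atad3afl/flMx1Cre replicate 1 and 2, and 1 without Atad3afl/fl replicate 2.

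Eif2ak4 encodes GCN2, which binds uncharged tRNA when amino acids run short. Gcn1l1 encodes the large ribosome-bound protein that GCN2 needs for this, and Impact encodes a protein that competes with GCN2 for GCN1 and so inhibits it. Neither Eif2ak4 nor Gcn1l1 was measurable here. The Eif2ak4 probe ILMN_1245532 had scanner intensities of 112.6 and 114.8 on the Atad3afl/flMx1Cre arrays and 94.4 and 106.7 on the Atad3afl/fl arrays, and ILMN_2623938 had 103.5 and 111.7 against 82.0 and 94.1. Probes on these arrays counted as detected from about 119.9 and 119.3 in the deletion group and from 104.4 and 112.4 in the controls, so the higher readings of the deletion arrays were still under their own threshold. The platform table gives Gcn1 the probes ILMN_1233268 and ILMN_2585316, which the array itself names as the cDNA clones A130017M23Rik and F730005M08Rik. They read 112.7 and 114.4, and 113.6 and 103.9, in Atad3afl/flMx1Cre samples, against 91.9 and 90.1, and 82.6 and 103.5, in Atad3afl/fl samples, with no detection p below 0.0962.

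**Figure D2:**
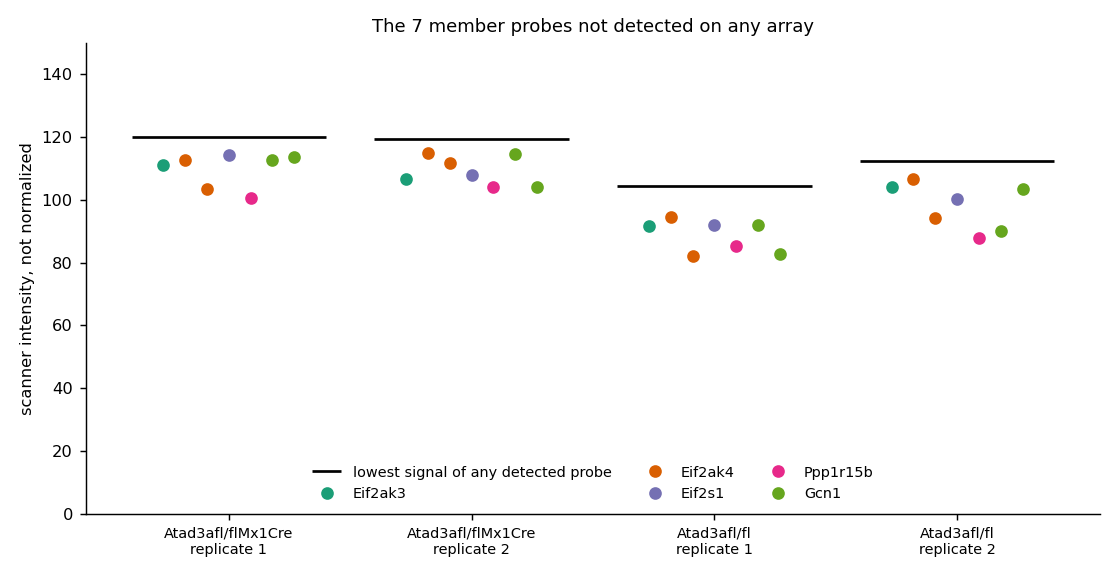
Scanner intensity before normalization (vertical axis) of the 7 member probes that were detected on no array, by array, coloured by gene; black bars mark the lowest signal of any detected probe on that array. Every point lies under the bar of its own array; the bars stand at 119.9 and 119.3 on the Atad3afl/flMx1Cre arrays and at 104.4 and 112.4 on the Atad3afl/fl arrays.

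Both Impact probes leaned upward without passing. The brighter, ILMN_2760977, read 9.26 and 9.14 in Atad3afl/flMx1Cre samples and 8.73 and 8.94 in Atad3afl/fl samples (log2 change 0.36, SE 0.14, 95% interval 0.01 to 0.72, adjusted p = 0.114). The dimmer, ILMN_2517290, read 6.44 and 5.99 in Atad3afl/flMx1Cre samples against 5.68 and 5.62 in Atad3afl/fl samples (log2 change 0.57, SE 0.19, 95% interval 0.08 to 1.06, adjusted p = 0.0841). On each probe both deletion samples lay above both controls. The interval of the brighter probe, which is not adjusted for the number of probes, reaches up to a rise of 1.65-fold. No alternative brought either probe past the threshold.

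The genes that act on GCN2 with GCN1 encode ribosomal stalk proteins, collision sensors and ABCF proteins. By their brightest probes limma called 0 of 10 tested genes in either direction, against 28.9% of all tested genes. At an unadjusted p under 0.05 there were 0 higher and 3 lower. A dimmer probe of Rnf25, a gene of this list, passed as lower (log2 change -0.50, SE 0.12, adjusted p = 0.0427). The brightest Rnf25 probe was at -0.19 without passing (adjusted p = 0.295). The median log2 change of the list was 0.05. The stalk protein genes Rplp0, Rplp1 and Rplp2 had log2 changes of 0.10, 0.16 and 0.05. Map3k20, which encodes the ribosome collision kinase ZAK, read 5.36 and 5.25 in Atad3afl/flMx1Cre samples and 5.35 and 4.76 in Atad3afl/fl samples, near the floor and with overlapping groups. This list gained 1 or 2 lower calls under 4 of the alternatives.

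Eif2s1, the substrate itself, was detected on no array by its single probe ILMN_2696159, with scanner intensities of 114.1 and 107.9 in Atad3afl/flMx1Cre samples and 92.1 and 100.3 in Atad3afl/fl samples. The subunit is needed for translation in all cells, and genes of its partner subunits were detected on all 4 arrays, so the reading describes this probe and gives no level for the transcript. Eif2s2 and Eif2s3x, the beta and gamma subunits of eIF2, had log2 changes of -0.07 (SE 0.11, adjusted p = 0.652) and -0.15 (SE 0.12, adjusted p = 0.404).

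By their brightest probes all 5 subunit genes of the exchange factor eIF2B, the target of phosphorylated eIF2, were lower on both Atad3afl/flMx1Cre arrays than on both Atad3afl/fl arrays, a pattern that 70.0% of all tested probes shared in one direction or the other, and 1 of them passed. Eif2b4, which encodes the delta subunit, read 10.03 and 10.04 in Atad3afl/flMx1Cre samples and 10.64 and 10.72 in Atad3afl/fl samples (log2 change -0.65, SE 0.11, adjusted p = 0.0197). The others had log2 changes of -0.35 for Eif2b1 (adjusted p = 0.0905), -0.26 for Eif2b2 (0.161), -0.38 for Eif2b3 (0.0801) and -0.20 for Eif2b5 (0.291), whose groups overlapped on another probe. Eif2b1 and Eif2b3 passed in the authors' processed values (adjusted p = 0.0338 and 0.0317). Eif2b4 lost its call without either Atad3afl/flMx1Cre array (adjusted p = 0.117 and 0.116) or without Atad3afl/fl replicate 2 (0.0544). Over the whole list of eIF2, eIF2B and the initiation factors around them, 1 of 13 tested genes fell and 0 rose, with a median of -0.12. Among all tested genes 14.1% were lower and 14.7% higher. At an unadjusted p under 0.05 the list had 3 lower and 1 higher. Of the genes outside eIF2B, the reinitiation factor Mcts1 was at 0.36 on the log2 scale without passing (adjusted p = 0.106). The GTPase-activating factor Eif5 had one of 0.28 by its brightest probe (adjusted p = 0.149), while its other tested probes passed at 0.54 and 0.67 (adjusted p = 0.0477 and 0.0289).

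On the side that reverses the signal, Ppp1r15b, the constitutive subunit that brings protein phosphatase 1 to eIF2 alpha, was lower. The probe ILMN_1239754, known as Ppp1r15b by the array's own name alone, read 6.48 and 6.77 in Atad3afl/flMx1Cre samples and 7.19 and 7.47 in Atad3afl/fl samples. Its log2 change was -0.71 (SE 0.17, 95% interval -1.15 to -0.26, adjusted p = 0.0429), a 1.63-fold lower level. The probe ILMN_2705604, read 6.83 and 6.53 against 7.07 and 7.19 and did not pass (log2 change -0.45, SE 0.15, 95% interval -0.84 to -0.05, adjusted p = 0.0923). Both had the deletion samples below the controls, and the mean of the probes passed (log2 change -0.58, adjusted p = 0.0205). The probe ILMN_2431897 was detected on no array. The call on ILMN_1239754 ended without Atad3afl/fl replicate 2 too (adjusted p = 0.114) or when undetected probes were kept (0.0696), and its fall was -0.38 in the authors' processed values.

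Ppp1r15a, the stress-induced counterpart of Ppp1r15b and itself normally raised by ATF4 signalling, fell further. It read 7.65 and 7.75 in Atad3afl/flMx1Cre samples and 9.30 and 9.36 in Atad3afl/fl samples (log2 change -1.63, SE 0.12, adjusted p = 0.00287). Of the catalytic subunits, Ppp1ca did not pass (log2 change 0.01, SE 0.11, adjusted p = 0.931). Ppp1cc fell by its brightest probe (log2 change -0.83, SE 0.14, adjusted p = 0.0177), while another probe was at 1.20 without passing (adjusted p = 0.181) and the mean of both was 0.19. In all, 2 of 5 tested genes of this list fell and 0 rose (also 0 at an unadjusted p under 0.05), against 14.1% lower and 14.7% higher over all tested genes. The call on Ppp1cc ended without either Atad3afl/flMx1Cre array (adjusted p = 0.103 and 0.0971).

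**Figure D3:**
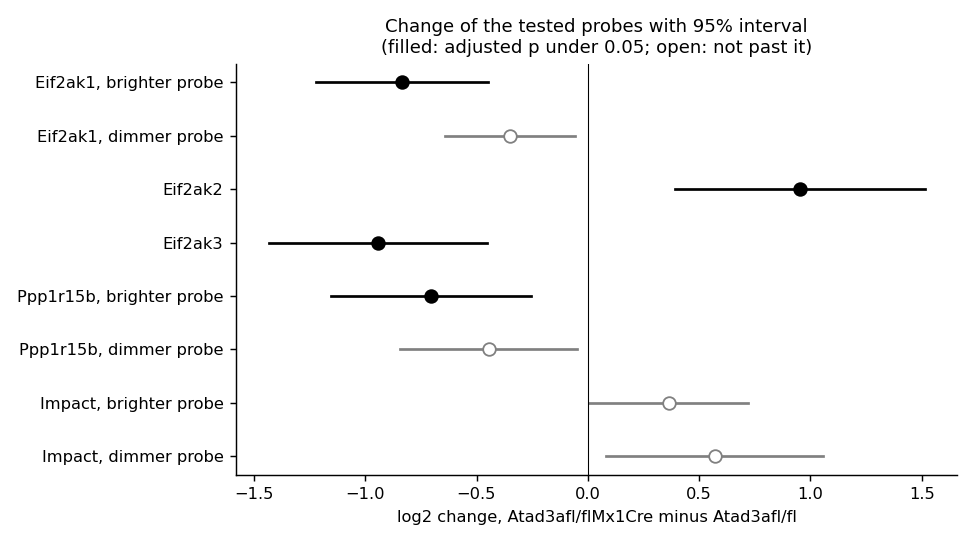
Log2 change (horizontal axis, Atad3afl/flMx1Cre minus Atad3afl/fl) of the 8 tested member probes with 95% intervals from limma; filled points passed an adjusted p of 0.05. The passing probes are Eif2ak2 at 0.95, and Eif2ak1, Eif2ak3 and Ppp1r15b at -0.84, -0.94 and -0.71.

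Upstream of HRI, the mitochondrial relay gene Dele1 was lower. It read 7.94 and 7.92 in Atad3afl/flMx1Cre samples and 8.55 and 8.93 in Atad3afl/fl samples (log2 change -0.80, SE 0.17, adjusted p = 0.0297). Oma1, the inner membrane protease that cleaves DELE1, had a log2 change of 0.29 (SE 0.11, adjusted p = 0.120) and passed in the authors' processed values (0.27, adjusted p = 0.0375). Of 6 tested genes 1 fell and 0 rose, against 14.1% lower and 14.7% higher over all tested genes. At an unadjusted p under 0.05 there were 2 lower and 0 higher. By their brightest probes the chaperones Hsp90ab1 and Hspa8 had log2 changes of 0.18 and 0.21, and Hsp90aa1 one of -0.50 (adjusted p = 0.0880). Another Hsp90aa1 probe was at -0.63 (adjusted p = 0.0813), and other Hspa8 probes were at -0.14 and 2.29. No probe of these 3 chaperones passed. The call on Dele1 ended without either Atad3afl/flMx1Cre array (adjusted p = 0.129 and 0.139) or without Atad3afl/fl replicate 2 (0.0542).

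Among proteins that bind double-stranded RNA or act on PKR, 3 of 7 tested genes rose and 0 fell (1 lower at an unadjusted p under 0.05). Over all tested genes the shares were 14.7% higher and 14.1% lower. The median log2 change of the list was 0.35. Besides Dnajc3 the genes that rose included Adar, the interferon-inducible RNA editing enzyme that keeps cellular RNA from activating PKR (log2 change 0.62, SE 0.11, adjusted p = 0.0212). Prkra, which encodes the activator PACT, had a log2 change of 0.35 without passing (adjusted p = 0.144). With median scaling Adar no longer passed (adjusted p = 0.0632) and 1 of the 7 was higher. None passed without either Atad3afl/flMx1Cre array, and Adar also failed without Atad3afl/fl replicate 2 (adjusted p = 0.0534), when 1 was higher.

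**Figure D4:**
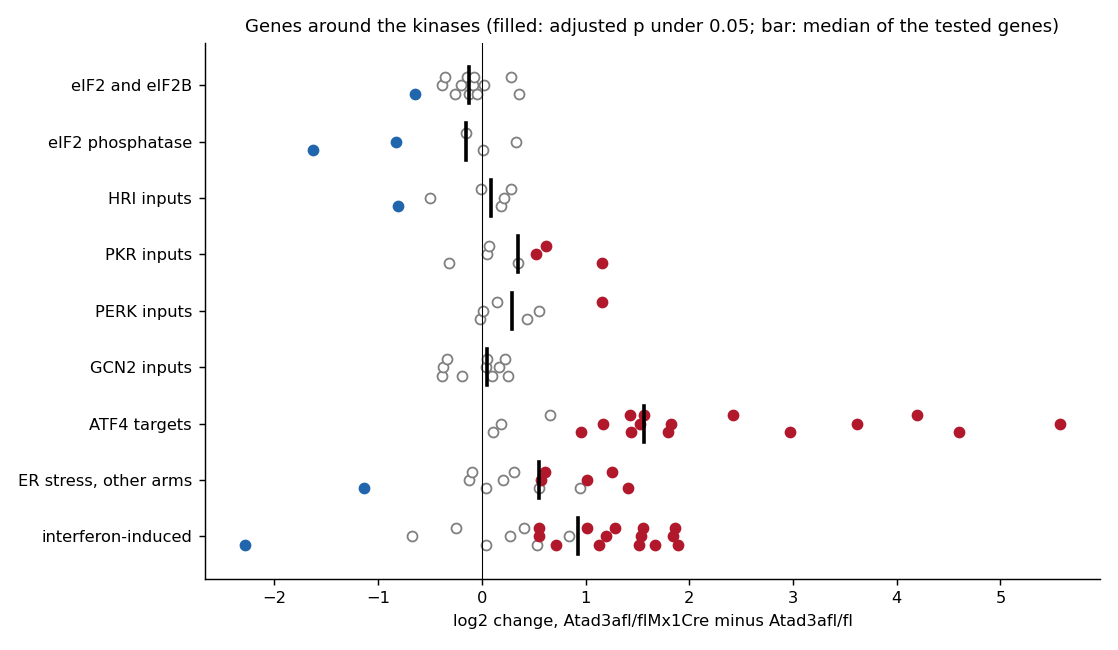
Log2 change (horizontal axis, Atad3afl/flMx1Cre minus Atad3afl/fl) of each tested gene of the 9 lists around the kinases, by its brightest tested probe; filled points passed an adjusted p of 0.05 and bars are list medians, with probes undetected in 1 group, such as that of Aldh1l2, drawn at their fitted value. The lists that feed the kinases have medians from 0.05 to 0.35; the ATF4 targets, with a median of 1.56, were listed with their rises already known, so their place on the plot is no result.

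Transcripts of genes known as ATF4 targets were measured as well. Of 17 tested genes of the ATF4 target list, which holds Atf4 itself, 14 rose and 0 fell (0 at an unadjusted p under 0.05). The median log2 change was 1.56, and 2 of the 17 were undetected on both Atad3afl/fl arrays. Ppp1r15a, also normally raised by ATF4 signalling, was placed on the phosphatase list instead and fell (log2 change -1.63). The ATF4 target list was written with the large rises of its members already known and is no independent evidence of direction. Trib3, a pseudokinase, read 10.60 and 10.90 in Atad3afl/flMx1Cre samples and 5.27 and 5.09 in Atad3afl/fl samples. Ddit3, which encodes CHOP, read 9.66 and 9.62 against 8.19 and 8.22. Nupr1 read 9.76 and 9.98 against 6.22 and 6.30, and Chac1 9.81 and 10.34 against 5.91 and 5.85. Aldh1l2 was undetected on both Atad3afl/fl arrays and entered the test only through the deletion samples. By its bound it was at least 16.1-fold higher. The Atf4 transcript itself had a log2 change of 0.11 by its brightest probe (SE 0.13, adjusted p = 0.559), with 11.67 and 11.84 in Atad3afl/flMx1Cre samples and 11.71 and 11.58 in Atad3afl/fl samples. A dimmer Atf4 probe passed, at 7.71 and 7.95 against 7.04 and 6.23 (log2 change 1.19, SE 0.30, adjusted p = 0.0444).

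Other cell type genes also moved between the groups. Over all tested genes 14.7% were higher and 14.1% lower. Some of the list genes entered the test only through 1 group, being undetected on both arrays of the other. These were 2 B lymphoid genes undetected in Atad3afl/flMx1Cre samples. In Atad3afl/fl samples they were 1 T and NK gene, 1 myeloid gene and 2 stem and progenitor genes. All 11 tested B lymphoid genes fell (median log2 change -2.58), with a mean log2 intensity of 6.02 and 6.34 on the Atad3afl/flMx1Cre arrays and 9.31 and 9.27 on the Atad3afl/fl arrays; the largest fall was that of Vpreb3. T and NK genes rose in 8 of 13 cases (median 0.95; 10.30 and 10.02 against 9.27 and 9.18), led by Cd247 and Gata3; Cd247 did not pass without either Atad3afl/flMx1Cre array (adjusted p = 0.0721 and 0.0565). Stem and progenitor genes rose in 8 of 11 cases, Ly6a and Angpt1 most (median 0.95; 8.15 and 8.23 against 7.33 and 7.32). Kit was the one that fell, at -0.82, while a dimmer Kit probe was at 0.44. Myeloid genes rose in 4 of 13 cases, with Ly6c1 rising the most at 0.85 (not passing without either Atad3afl/flMx1Cre array, adjusted p = 0.0886 and 0.0640), and fell in 2, with Elane at -3.13 (median 0.25; 9.81 and 9.82 against 9.78 and 9.87). The part of these cell types in the changes of Eif2ak2, Eif2ak3 and Ppp1r15b was not tested.

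The genes whose pattern over the 4 arrays lay nearest to each called member were looked up among 10415 named genes outside the lists, by the root mean square distance of centred log2 values. For Eif2ak1 they were Frat2 and Soga1 (0.0178 and 0.0205), and for Eif2ak2 Ctla4 and Kcnh6 (0.0371 and 0.0468). For Eif2ak3 they were Mip and Mcm2 (0.0201 and 0.0314), and for Ppp1r15b Helq and Crnkl1 (0.0236 and 0.0358). With 4 arrays in 2 groups such nearness mostly reflects a like difference between groups and is a description only.

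**Figure D5:**
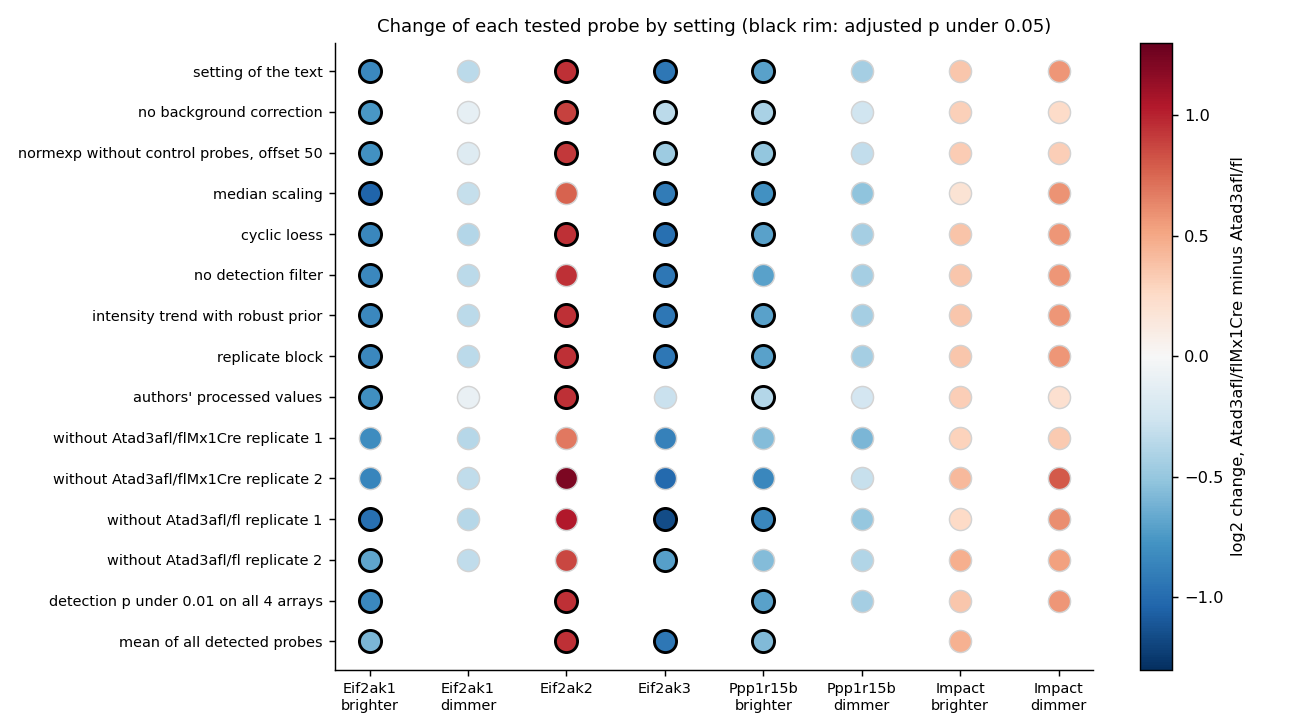
Log2 change (colour, Atad3afl/flMx1Cre minus Atad3afl/fl) of each tested member probe (columns) under each processing setting (rows); a black rim marks an adjusted p under 0.05 and a gap a setting that left the probe out. Each column keeps its colour side in every row, and the rims of Eif2ak1, Eif2ak2, Eif2ak3 and Ppp1r15b are missing in the 2 rows that leave out an Atad3afl/flMx1Cre array.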

How the data were processed

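Total RNA from 4 samples was hybridised as biotin-labelled cRNA to Illumina mouse WG-6 V2 arrays, 1 colour, 1 array per sample. The deposited scanner table holds, per the file headers, a non-normalized intensity and a detection p-value for each probe. GenomeStudio is named in the submitters' processing notes, with nothing on background subtraction. A processed intensity per probe was also deposited by the authors, quantile normalized by its values (the same lowest and highest value, 74.2 and 21732.2, in each column), and served as an alternative.

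Intensities were background corrected by the neqc steps of limma 3.58.1 in R 4.3.3 (negative controls inferred from detection p-values, offset 16), quantile normalized and put on a log2 scale. The 18367 probes detected (p under 0.05) on 2 or more arrays were fitted by lmFit and eBayes, with 2 residual and 2.72 prior degrees of freedom. P-values were adjusted over all of them by Benjamini and Hochberg, with a threshold of 0.05. Changes of dim probes depend on the offset. Where both arrays of a group missed a probe, a bound is given: the other group's mean over a floor, which on each array is the lowest detected signal or, if higher, the probe itself. A gene on a list is read by its brightest tested probe. Names came from the platform table, updated by Entrez ID through RefSeq (34807 of 34885 probes with 1 gene matched; 18 with several were left unnamed), else from the array's own names; old annotation may misname a probe.

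The named genes followed a rule: every member, up to 4 called genes with the largest change on each pathway list, 2 on each cell type list, the 2 most alike in pattern to each called member, and a fixed set that includes Ppp1r15a, Atf4, Ddit3, Trib3, Hspa5, Dnajc3, Dele1, Oma1, Map3k20, eIF2B, Isg15, Mx1, Ifit1, Alas2, Gata1 and Atad3a. Any other gene named was chosen after its values were seen, and a few genes that the rule takes are not reported here. The members, lists and motifs were chosen with earlier results of these data known. Tested on simulated data for this comparison with 200 of 18367 probes changed, the fit recovered 171 of 200 changes of 2 on the log2 scale and 0 of 200 of size 1. In the real data 27.0% of tested probes passed, a far larger share, and the adjusted threshold is stricter when fewer probes change. The simulated rates therefore give no recovery rate for the real comparison, where smaller changes than 1 did pass. Alternatives were the background correction, normalization, detection filter, variance model, replicate block, authors' values, each array left out, all probes of a gene averaged and a 2-fold threshold.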

Additional observations from a re-analysis of the deposited data

How the results depend on the processing

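All 8 tested member probes kept their direction under every alternative in which they were tested. Calls did not always hold: of 107 such values, 92 kept their side of the threshold and 15 lost the call; the cause was not tested. With median scaling Eif2ak2 was at 0.77 and 0 member probes were higher, 2 eIF2 and eIF2B genes and 2 HRI inputs were lower, 1 PKR input was higher and 1 lower, 1 GCN2 input was lower and 3 genes of the other endoplasmic reticulum arms were higher. Without a detection filter, which adjusts over 45281 probes, Eif2ak2 (0.95) and Ppp1r15b (-0.71) lost their calls, 0 member probes were higher, and 3 endoplasmic reticulum genes were. Without background correction 1 eIF2 and eIF2B gene was higher and 3 lower, 1 HRI input higher and 2 lower, and 1 PKR input lower; with normexp without control probes 2 eIF2 and eIF2B genes were lower. In the authors' processed values Eif2ak3 was at -0.29 and lost its call, and 1 eIF2 and eIF2B gene was higher and 3 lower, 1 HRI input higher, 1 PKR input lower and 2 GCN2 inputs lower. With an intensity trend and robust prior 2 eIF2 and eIF2B genes were higher and 3 lower, with 2 HRI inputs, 1 PKR input and 2 GCN2 inputs lower. With all detected probes averaged 1 eIF2 and eIF2B gene was higher, 1 phosphatase gene and 1 GCN2 input were lower, and Ppp1cc reversed to 0.19 and Map3k20 to -0.0316. At least 2-fold as well left 0 member probes higher and 0 lower.

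Leaving out 1 array in turn gave log2 changes of -0.98 to -0.69 for Eif2ak1, 0.69 to 1.22 for Eif2ak2, -1.17 to -0.72 for Eif2ak3 and -0.85 to -0.56 for Ppp1r15b. Member probes higher were 0 in each case and lower 0 to 3, and all probes higher were 481 to 2552 and lower 678 to 2190. By list the lower calls were 0 to 1 for eIF2 and eIF2B, 1 to 2 for the phosphatase, 0 to 1 for HRI inputs and 0 to 1 for the other endoplasmic reticulum arms. The higher calls were 0 to 1 for the phosphatase, 0 to 2 for PKR inputs, 0 to 2 for PERK inputs, 0 to 5 for the other endoplasmic reticulum arms and 6 to 9 for interferon-induced genes. The lone sample of a group is there assumed to vary like the others. Of values without a call, Atf4 was at -0.0298 and Hspa5 at 0.0304 with median scaling. With 1 array left out Hspa5 ranged over -0.39 to 0.37 and Map3k20 over -0.0454 to 0.54. Hspa5 was at 0.12 without Atad3afl/fl replicate 2.

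The samples share only a replicate number: the deviations of same-numbered arrays correlated at 0.03 across tested probes. With the replicate block 2118 probes were higher and 1883 lower, and no member call changed. Signal over background limits what can be said of Eif2ak4, Gcn1l1 and Eif2s1, which no probe measured, and of Eif2ak3 and Hspa5, near the floor.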
